A study of Mus musculus with 9 samples.

Results

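Ighm, Jchain, Pou2af1, Vpreb1, Igll1, Blnk, Cd22, Cd24a and St6gal1 are 9 genes of the B lineage, read here in blood progenitors from 3 groups of mice. Every probe set that the platform annotation pairs with one of these symbols and no other was taken, which gave 24 of 22626 probe sets, for 9 of 12393 measured genes. Ighm had 11 of them, Cd24a 3, and Igll1, Cd22 and St6gal1 2 each, while Jchain, Pou2af1, Vpreb1 and Blnk had 1 each. The rule goes by symbol and uses no measured value, but the 9 genes were listed with earlier results of these data known.

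RNA came from KSL cells, a bone marrow fraction of C57BL/6 mice sorted as c-Kit+, Sca-1+, Lin- and IL7Ra-, which is enriched for blood stem cells and early progenitors. Each of the 9 samples was hybridised to an Affymetrix array, with 3 arrays per group. In the RUNX1(41-214) group, cells had been transduced with a retroviral vector and transplanted, and were taken 4 months later. By its name the vector encodes amino acids 41 to 214 of RUNX1, a stretch that holds the DNA-binding Runt domain. The Runx1KO mice were Runx1floxed/floxed MxCre+/- and were sampled 3 months after poly IC. The control mice were Runx1floxed/floxed MxCre-/- and were sampled at the same time after the same agent. Both of these groups thus carried floxed Runx1 alleles and had received poly IC, which induces interferon and through it the Mx promoter that drives Cre in many tissues. For the RUNX1(41-214) group the labels name neither poly IC nor floxed alleles, and no transplanted group with an empty vector was analysed here. Vector, transplantation, poly IC and time therefore cannot be told apart between RUNX1(41-214) and the other groups. The labels call the arrays of a group biological replicates without saying whether each was a separate mouse or a pool. The p-values therefore measure the spread between these samples, which may not be that between single mice.

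B lymphocytes arise in the marrow from lymphoid-primed progenitors. After recombination of the heavy chain locus, the mu heavy chain (Ighm) pairs with a surrogate light chain made of the Vpreb1 and Igll1 products, and this pre-B receptor signals through the adaptor Blnk. The heavy chain locus is also transcribed from unrearranged alleles in early lymphoid progenitors, so its transcript is not restricted to cells that make antibody.

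To show what the start regions of the genes look like, 250 bases upstream of the annotated start are printed for 5 of them. Blnk, Jchain and Pou2af1 passed the test described below in at least 1 comparison, and Vpreb1 and Igll1 are the neighbouring surrogate light chain genes. The sequences are from RefSeq, build GRCm38.p6, 5′ to 3′ on the strand of the gene. They cover chr19:40994222-40994471 on the minus strand for Blnk, chr5:88527898-88528147 on the minus strand for Jchain and chr9:51213440-51213689 on the plus strand for Pou2af1. For Vpreb1 the window is chr16:16869256-16869505 and for Igll1 chr16:16863986-16864235, both on the minus strand. The deposited table names no build, and no other coordinate is used.
Blnk: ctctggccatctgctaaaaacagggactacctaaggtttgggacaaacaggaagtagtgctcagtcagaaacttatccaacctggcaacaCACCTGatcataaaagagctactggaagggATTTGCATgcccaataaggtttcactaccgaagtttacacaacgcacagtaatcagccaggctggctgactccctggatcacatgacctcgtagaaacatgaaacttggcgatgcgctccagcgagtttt
Jchain: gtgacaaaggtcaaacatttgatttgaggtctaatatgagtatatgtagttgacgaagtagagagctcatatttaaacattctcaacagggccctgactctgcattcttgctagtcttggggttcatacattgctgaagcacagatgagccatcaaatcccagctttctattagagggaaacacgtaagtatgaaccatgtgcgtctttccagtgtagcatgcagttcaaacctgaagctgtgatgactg
Pou2af1: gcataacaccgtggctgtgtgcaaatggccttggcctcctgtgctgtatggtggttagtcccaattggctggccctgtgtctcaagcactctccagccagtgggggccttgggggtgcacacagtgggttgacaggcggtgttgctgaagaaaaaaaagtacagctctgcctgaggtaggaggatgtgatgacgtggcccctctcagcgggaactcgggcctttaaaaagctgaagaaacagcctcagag
Vpreb1: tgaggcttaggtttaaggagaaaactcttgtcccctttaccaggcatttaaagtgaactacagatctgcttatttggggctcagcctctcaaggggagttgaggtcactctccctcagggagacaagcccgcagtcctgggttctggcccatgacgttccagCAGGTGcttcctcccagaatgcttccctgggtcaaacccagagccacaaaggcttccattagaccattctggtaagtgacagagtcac
Igll1: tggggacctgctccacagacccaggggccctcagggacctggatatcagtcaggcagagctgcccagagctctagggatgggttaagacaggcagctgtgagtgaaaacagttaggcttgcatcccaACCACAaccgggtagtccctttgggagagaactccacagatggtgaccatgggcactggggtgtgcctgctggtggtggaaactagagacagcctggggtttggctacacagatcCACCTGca
Capitals mark matches, on either strand, to 3 motifs: the octamer ATGCAAAT of octamer-binding factors, whose coactivator Pou2af1 encodes, the RUNX motif as TGTGGT or TGCGGT and the E2A E-box CAGGTG. No match overlapped another in these windows. The Blnk window held an octamer starting 130 bases before the gene and an E-box starting 160 bases before it. The Igll1 window held a RUNX match at 123 bases and an E-box at 8 bases before the start, and the Vpreb1 window held an E-box at 88 bases. In the Jchain and Pou2af1 windows none of these letters were present. Of all 32851 windows of this length, 1.6% held the octamer, 18.6% a RUNX match and 17.2% the E-box. Among the 9 windows of the 7 members with an entry, these were found in 1, 1 and 4, a description of letters and not of binding.

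Across the series, the median signal per array lay between 124.9 and 147.2, and arrays of a group correlated at 0.974 to 0.992 over all probe sets. The 3′ to 5′ ratio of the Gapdh control probe sets, a sign of RNA degradation or short amplification, was 2.13 on the log2 scale in Runx1KO replicate 3 and 1.85 in control replicate 2, against 0.98 to 1.29 in the other 7 arrays. On the b-actin control probe sets that ratio was 1.98 in Runx1KO replicate 3, 0.99 in control replicate 2 and 0.44 to 0.88 in the other 7 arrays. It thus set Runx1KO replicate 3 apart, but hardly control replicate 2. Of the 5 Runx1 probe sets, none was lower in all Runx1KO arrays than in all controls. On 1422864_at, 1422865_at and 1427650_a_at every Runx1KO array was above every control, and so was every RUNX1(41-214) array. Signals of 1422864_at were 2417, 3476 and 2563 in Runx1KO against 1701, 931 and 1475 in controls. The log2 differences of Runx1KO from control on these were 1.05 ± 0.21, 1.58 ± 0.37 and 1.03 ± 0.23. They did not pass (limma adjusted p = 0.112, 0.165 and 0.152). RUNX1(41-214) passed against control on 1427650_a_at only (1.07 ± 0.23, limma adjusted p = 0.0291). Where these probes lie relative to the floxed exon is not given in the sources used here, so they do not check the deletion, and Runx1KO below names arrays by their label.

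Values are given below as the deposited signal in replicates 1, 2 and 3 of each group, on a linear scale. Differences are log2 fold changes ± SE after an offset of 16 and quantile normalization, with a fold beside some of them, from limma fitted to all 9 arrays. A probe set passed at an adjusted p below 0.05, where p-values are limma's with Benjamini-Hochberg adjustment over all 22626 probe sets. The offset shrinks differences of dim probe sets.

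In RUNX1(41-214) cells, 2 of 11 probe sets of Ighm, the 1 of Jchain, the 1 of Blnk and 1 of 2 of St6gal1 fell against controls, by 4.94-fold to 10.3-fold. Against Runx1KO cells the same 2 probe sets of Ighm and those of Jchain, Pou2af1 and Blnk fell. Runx1KO cells differed from controls at none of the 24 probe sets past the threshold, but their 3 arrays lay far apart for several of these genes. Of the 24 members, 5 passed as lower and 0 as higher in RUNX1(41-214) against control, where 3.05% of all probe sets passed in either direction, 1.83% as lower and 1.22% as higher. Between Runx1KO and control 0 passed in limma, against 0.137% of all probe sets in either direction, 0.110% as higher and 0.0265% as lower, and 4 reached an unadjusted p below 0.05, against 6.44%. Between RUNX1(41-214) and Runx1KO 5 passed as lower and 0 as higher, against 1.08% of all probe sets in either direction, 0.840% as lower and 0.243% as higher. The comparisons share arrays, and 4 members passed as lower in RUNX1(41-214) against both other groups.

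**Figure D1:**
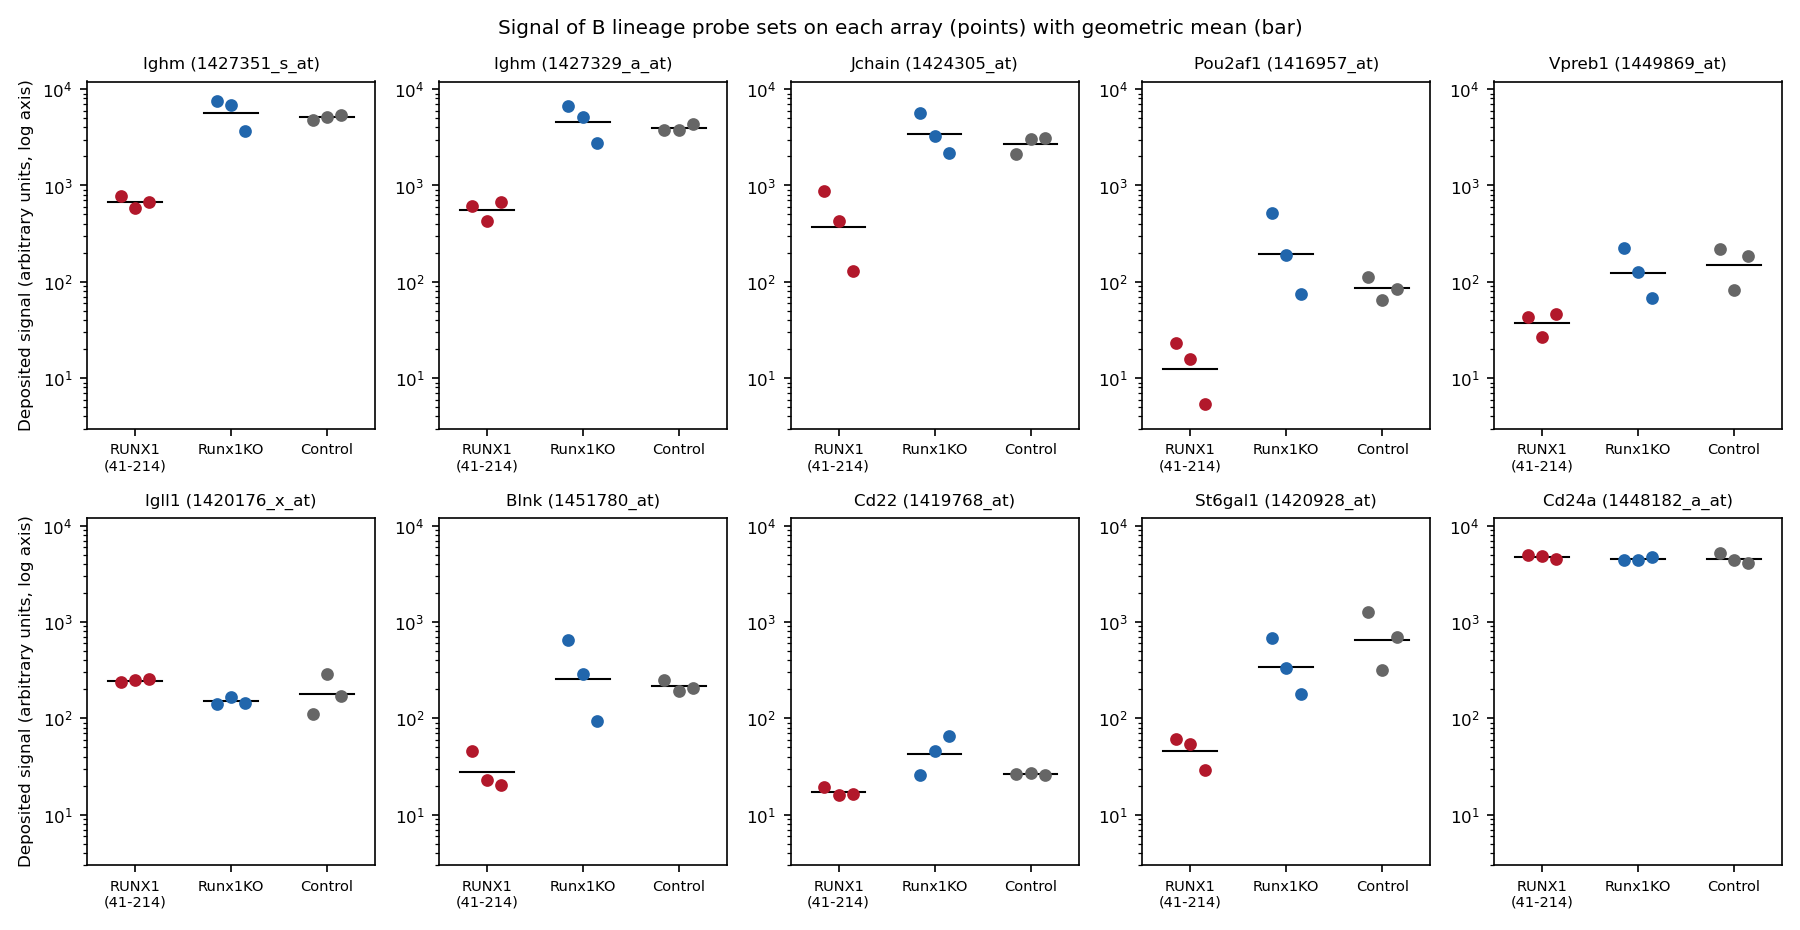
Deposited signal (log axis) of 10 probe sets, the brightest of each of the 9 genes and a further one of Ighm, in RUNX1(41-214), Runx1KO and control arrays. Each point is an array and each bar the geometric mean of 3 arrays: Ighm 1427351_s_at lies at 577 to 779 in RUNX1(41-214), 3688 to 7447 in Runx1KO and 4792 to 5383 in control, while Cd24a lies at 4054 to 5154 over all 9 arrays.

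Among the surrogate light chain genes, Vpreb1 (1449869_at) encodes the variable-like part. Its signal was 43.2, 26.6 and 46.1 in RUNX1(41-214), 225, 126 and 68.4 in Runx1KO, and 218, 82.5 and 184 in control. All 3 RUNX1(41-214) arrays lay below all arrays of both other groups, which overlapped with each other. The log2 difference from control was -1.54 ± 0.40 and missed the threshold (adjusted p = 0.0698). Leaving out control replicate 2 brought it past, at -1.92 (adjusted p = 0.0254), as did leaving out Runx1KO replicate 3 (adjusted p = 0.0452). Against Runx1KO the difference was -1.34 ± 0.40 (adjusted p = 0.213), and Runx1KO stood -0.20 ± 0.40 from control (adjusted p = 0.989).

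Igll1, the constant-like part of the surrogate light chain, has no other RefSeq gene starting between it and Vpreb1. Its brighter probe set, 1420176_x_at, read 237, 247 and 254 in RUNX1(41-214), 141, 168 and 144 in Runx1KO, and 112, 291 and 170 in control. The RUNX1(41-214) arrays were thus all above the Runx1KO arrays and inside the range of the controls. Neither difference passed: it was 0.54 ± 0.30 against control (adjusted p = 0.469) and 0.74 ± 0.30 against Runx1KO (adjusted p = 0.408). The other Igll1 probe set, 1420177_at, stayed between 15.7 and 30.2 on all 9 arrays. Whether Vpreb1 and Igll1 differ from each other in their response was not tested.

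Ighm encodes the mu heavy chain, and its probe sets did not read alike. Signals of 1427351_s_at were 779, 577 and 674 in RUNX1(41-214), 7447, 6803 and 3688 in Runx1KO, and 4792, 5124 and 5383 in control. Every RUNX1(41-214) array was far below every other array, and the Runx1KO arrays straddled the controls. On the log2 scale the means were 9.44 ± 0.18, 12.49 ± 0.48 and 12.35 ± 0.15 in RUNX1(41-214), Runx1KO and control (SD, n = 3 each). RUNX1(41-214) was 7.51-fold lower than control (-2.91 ± 0.21, limma adjusted p = 2.47e-05) and 8.24-fold lower than Runx1KO (-3.04 ± 0.21, limma adjusted p = 2.36e-05). Runx1KO stood 0.13 ± 0.21 from control (adjusted p = 0.976).

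A further Ighm probe set, 1427329_a_at, gave 606, 427 and 667 in RUNX1(41-214), 6671, 5146 and 2759 in Runx1KO, and 3796, 3806 and 4389 in control. The groups were ordered on it as on 1427351_s_at, with Runx1KO replicate 3 below and Runx1KO replicates 1 and 2 above all controls. RUNX1(41-214) was 6.97-fold lower than control (-2.80 ± 0.25, adjusted p = 0.000123) and 7.75-fold lower than Runx1KO (-2.95 ± 0.25, adjusted p = 0.000162). For both probe sets these calls held with each of the 9 arrays left out in turn.

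The other 9 Ighm probe sets did not pass in any comparison. Their differences between RUNX1(41-214) and control ran from -0.57 to 0.35, with a lowest adjusted p of 0.598, and those between RUNX1(41-214) and Runx1KO from -1.20 to 0.70, with a lowest adjusted p of 0.258. The brightest of these 9, 1427870_x_at, read 478, 481 and 550 in RUNX1(41-214), 538, 633 and 502 in Runx1KO, and 447, 465 and 653 in control, so that all 3 groups overlapped. On 1425385_a_at the signals were 299, 214 and 139 in RUNX1(41-214), 234, 187 and 99.6 in Runx1KO, and 99.2, 317 and 160 in control, again with overlap. For 1452535_at, Runx1KO replicate 1 stood out at 115, against 15.9 to 61.7 on the other 8 arrays. On 1426196_at all RUNX1(41-214) arrays, at 22, 23.0 and 6.2, were above the Runx1KO arrays, at 3.0, 4.5 and 4.5. The dim 1427756_x_at, 1427869_at and 1451949_at stayed between 1.0 and 58.9. Which transcripts each probe set detects was not examined, and signal from a sequence that immunoglobulin genes share cannot be assigned to 1 of them. With all 11 probe sets averaged to 1 value, the difference was -0.52 against control (adjusted p = 0.324) and -0.79 against Runx1KO (adjusted p = 0.193), so the call for Ighm rests on 2 of its probe sets.

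**Figure D2:**
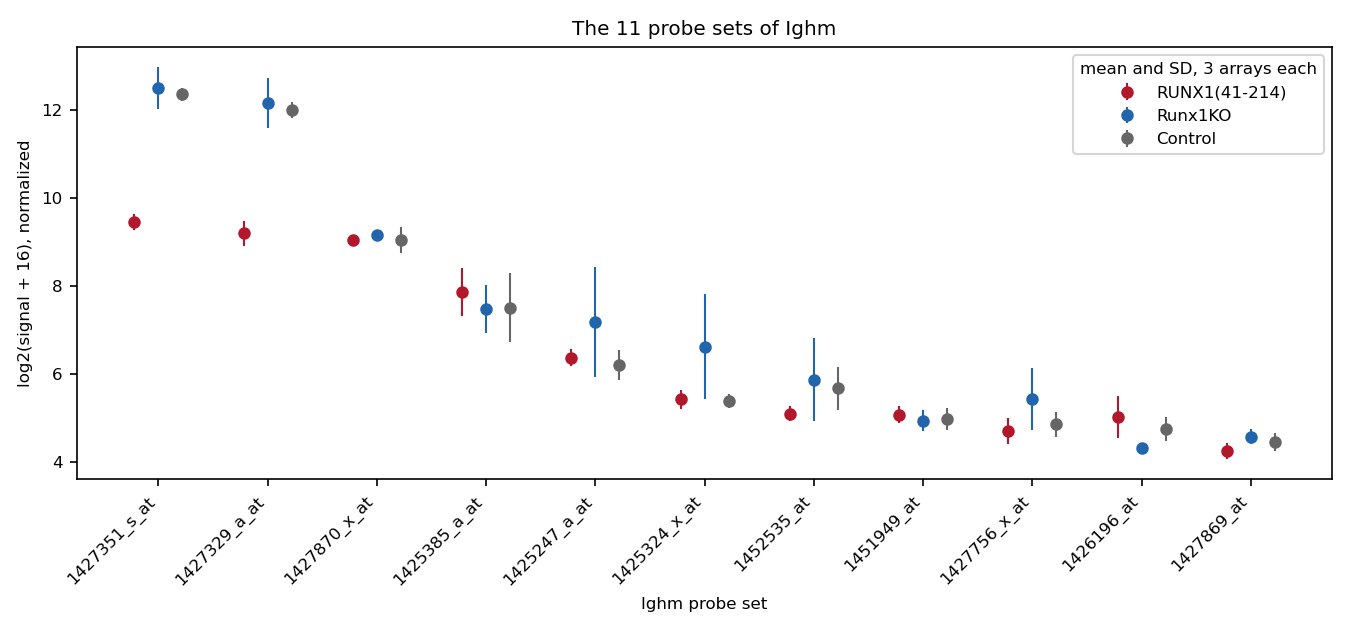
Normalized log2 signal of the 11 Ighm probe sets (mean and SD of 3 arrays) in RUNX1(41-214), Runx1KO and control. Probe sets 1427351_s_at and 1427329_a_at lie at 9.44 and 9.19 in RUNX1(41-214), 12.49 and 12.15 in Runx1KO and 12.35 and 11.99 in control, while no other probe set passed the test.

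On 2 dimmer Ighm probe sets, Runx1KO arrays spread widely. For 1425324_x_at the signals were 25.0, 33.2 and 20.5 in RUNX1(41-214), 190, 110 and 22.7 in Runx1KO, and 29.2, 30.0 and 22 in control. Runx1KO replicates 1 and 2 stood above all other arrays, and Runx1KO replicate 3 lay among the controls. The difference of Runx1KO from control was 1.24 ± 0.45 (limma's unadjusted p was 0.0180, adjusted p = 0.559), and it was 1.89 with an adjusted p of 0.0398 when Runx1KO replicate 3 was left out. Signals of 1425247_a_at were 53.6, 73.6 and 63.0 in RUNX1(41-214), 285, 183 and 37.7 in Runx1KO, and 41.8, 78.5 and 64.0 in control. Here too replicates 1 and 2 of Runx1KO were the highest arrays, and replicate 3 was the lowest of all 9.

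Jchain (1424305_at) encodes the joining chain that links secreted IgM and IgA into polymers. It read 868, 432 and 131 in RUNX1(41-214), 5651, 3275 and 2151 in Runx1KO, and 2114, 3009 and 3140 in control. All RUNX1(41-214) arrays were below all others, yet they also lay far apart. Their range was 2.59 on the log2 scale, which 0.234% of all probe sets matched or exceeded in that group. Jchain was 7.05-fold lower in RUNX1(41-214) than in control (-2.82 ± 0.53, adjusted p = 0.0150) and 8.61-fold lower than in Runx1KO (-3.11 ± 0.53, adjusted p = 0.0185). Without RUNX1(41-214) replicate 3, the lowest array, the differences were -2.11 and -2.39, and both still passed. The call against control ended without control replicate 3 (adjusted p = 0.0695). The call against Runx1KO ended without Runx1KO replicate 1, Runx1KO replicate 2 or RUNX1(41-214) replicate 2, with adjusted p-values of 0.0838, 0.0828 and 0.0731, and also with only these 2 groups fitted (adjusted p = 0.0637). Runx1KO and control overlapped (0.29 ± 0.53, adjusted p = 0.986).

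Pou2af1 (1416957_at) encodes a B cell coactivator of octamer-binding factors. Its signals were 22.9, 15.9 and 5.4 in RUNX1(41-214), 524, 189 and 75.0 in Runx1KO, and 113, 65.5 and 84.6 in control. RUNX1(41-214) arrays were the lowest throughout, and Runx1KO replicate 1 was the highest array. Pou2af1 was 7.05-fold lower in RUNX1(41-214) than in Runx1KO (-2.82 ± 0.51, adjusted p = 0.0250), a call that ended in 5 of the 9 omissions, with an adjusted p of up to 0.100. Those were control replicate 3, Runx1KO replicate 2 and each of the 3 RUNX1(41-214) arrays. It also ended with only these 2 groups fitted (adjusted p = 0.0780) and with an offset of 50 (-1.97, adjusted p = 0.0584), and the difference was -2.16 without Runx1KO replicate 1 and -3.43 without replicate 3. Against control the difference was -1.69 ± 0.51 and missed the threshold (adjusted p = 0.127), but passed without Runx1KO replicate 1 (adjusted p = 0.0312) or replicate 3 (adjusted p = 0.0390). Runx1KO stood 1.13 ± 0.51 above control (limma's unadjusted p was 0.0490, adjusted p = 0.775).

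Blnk (1451780_at), the adaptor that carries pre-B and B cell receptor signals, read 46.0, 22.9 and 20.4 in RUNX1(41-214), 644, 286 and 93.1 in Runx1KO, and 250, 193 and 208 in control. Again the RUNX1(41-214) arrays were below all others, and the Runx1KO arrays lay on both sides of the controls. The difference was -2.31 ± 0.51 from control (adjusted p = 0.0331) and -2.59 ± 0.51 from Runx1KO (adjusted p = 0.0369). Both calls depended on single arrays. The call against control held without Runx1KO replicate 1 or replicate 3 and ended in the other 7 omissions, with an adjusted p of up to 0.137, and that against Runx1KO held only without Runx1KO replicate 3, with an adjusted p of up to 0.172 in the other 8. The log2 difference kept its sign in each of them. With an offset of 50 neither passed (-1.69 and -1.98, adjusted p = 0.0696 and 0.0685). With only the 2 groups compared in the limma fit, the difference from control passed (-2.31 ± 0.27, adjusted p = 0.0044). That from Runx1KO did not pass in such a fit (adjusted p = 0.105). The difference from Runx1KO was -1.97 without Runx1KO replicate 1 and -3.25 without replicate 3. Runx1KO stood 0.28 ± 0.51 from control (adjusted p = 0.985).

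St6gal1 makes the sialic acid linkage that Cd22 binds. Its brighter probe set, 1420928_at, read 60.7, 53.5 and 28.9 in RUNX1(41-214), 677, 334 and 178 in Runx1KO, and 1270, 315 and 693 in control. The RUNX1(41-214) arrays were below all others, and the other groups overlapped over wide ranges. St6gal1 was 10.3-fold lower in RUNX1(41-214) than in control (-3.36 ± 0.52, adjusted p = 0.00484), and this held in all 9 omissions. Against Runx1KO the difference of -2.46 ± 0.52 lay just outside the threshold (adjusted p = 0.0536), and passed, for example, without control replicate 2 (adjusted p = 0.0272). Runx1KO stood -0.90 ± 0.52 from control (adjusted p = 0.865). The other St6gal1 probe set, 1420927_at, read 61.7, 48.2 and 88.4 in RUNX1(41-214), 67.1, 39.0 and 39.9 in Runx1KO, and 68.1, 52.3 and 75.6 in control, with overlap of all groups. Its difference was 0.11 ± 0.24 from control and 0.41 ± 0.24 from Runx1KO, so that St6gal1 as lower, and by how much, rests on 1 of the 2 probe sets. With both averaged, St6gal1 stood at -1.63 against control (adjusted p = 0.0188), a mean that carries the difference of 1420928_at.

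Cd22, an inhibitory receptor of B cells, was dim. Probe set 1419768_at read 19.5, 16 and 16.5 in RUNX1(41-214), 25.6, 45.7 and 64.9 in Runx1KO, and 26.2, 27.0 and 25.5 in control. Here Runx1KO replicate 3 was the highest array, unlike for Blnk or Pou2af1, and the RUNX1(41-214) arrays were the lowest. No difference passed: it was -0.28 ± 0.22 for RUNX1(41-214) against control (adjusted p = 0.648), 0.53 ± 0.22 for Runx1KO against control (limma's unadjusted p was 0.0347, adjusted p = 0.711) and -0.81 ± 0.22 for RUNX1(41-214) against Runx1KO (adjusted p = 0.158). Without Runx1KO replicate 1 the last of these was -1.06 (adjusted p = 0.0428). The other Cd22 probe set, 1419769_at, stayed between 10.8 and 25.9 on all arrays.

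Cd24a encodes a surface glycoprotein found on early B cells and on many other cells of the marrow. Its brightest probe set, 1448182_a_at, read 4901, 4851 and 4523 in RUNX1(41-214), 4377, 4432 and 4744 in Runx1KO, and 5154, 4413 and 4054 in control. All 3 groups overlapped, and the differences were 0.02 ± 0.10, -0.03 ± 0.10 and 0.05 ± 0.10 for RUNX1(41-214) against control, Runx1KO against control and RUNX1(41-214) against Runx1KO (adjusted p = 0.969, 0.992 and 0.927). On 1437502_x_at the signals were 2030, 2041 and 1821 in RUNX1(41-214), 1556, 1477 and 1623 in Runx1KO, and 2063, 1943 and 1952 in control. All Runx1KO arrays were below all controls there, but the difference of -0.37 ± 0.12 did not pass (limma's unadjusted p was 0.0122, adjusted p = 0.492), the lowest adjusted p of the 24 members in that comparison. The last Cd24a probe set, 1416034_at, differed by 0.18 between RUNX1(41-214) and control and by -0.13 between Runx1KO and control.

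**Figure D3:**
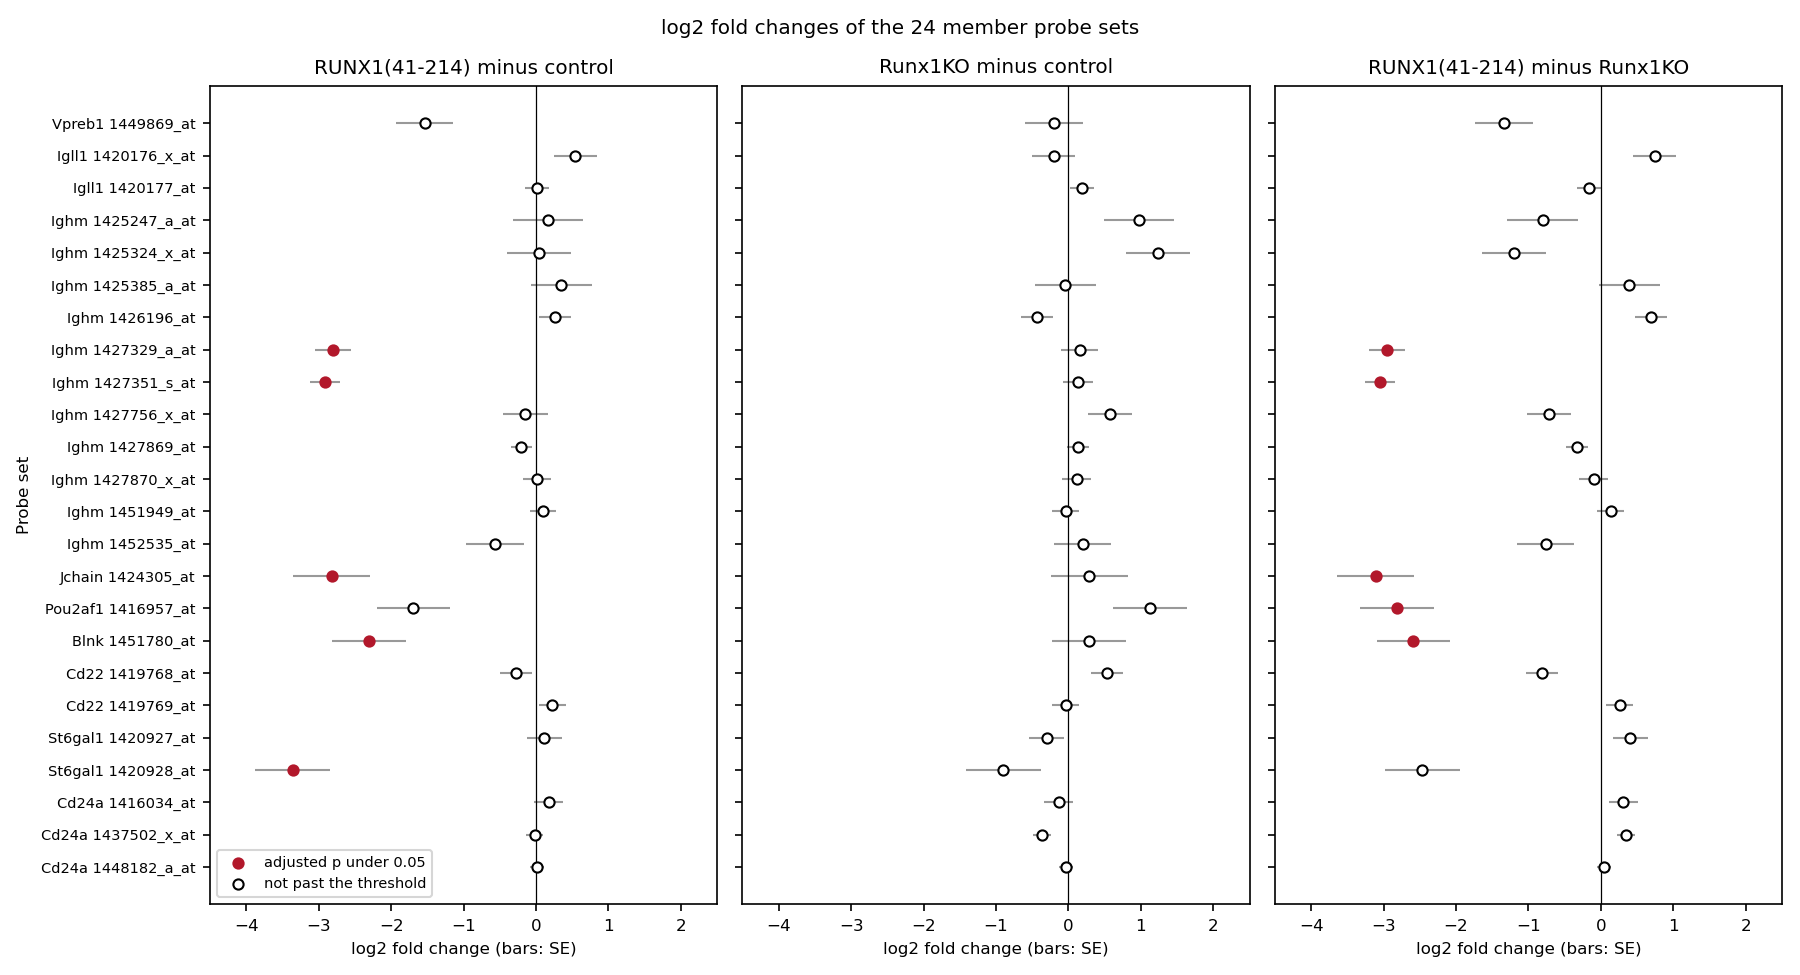
Log2 fold change ± SE of the 24 probe sets for RUNX1(41-214) against control, Runx1KO against control and RUNX1(41-214) against Runx1KO, red where the adjusted p is under 0.05. Red points lie at -2.31 to -3.36 against control and at -2.59 to -3.11 against Runx1KO, and there are 0 in Runx1KO against control.

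Over all 24 members the median log2 fold change was -0.00 for RUNX1(41-214) against control, 0.12 for Runx1KO against control and -0.52 for RUNX1(41-214) against Runx1KO, where the medians of all probe sets were 0.02, -0.00 and 0.02. The members held 14 probe sets at or below the median signal of the arrays, 138.4, and these weigh on the medians. With the brightest probe set of each gene, the medians were -1.69, 0.13 and -2.46. Arrays of RUNX1(41-214) and control did not overlap for 9 members, all lower, where 19.0% of all probe sets did so, 9.22% as lower and 9.73% as higher. Between Runx1KO and control 2 members did not overlap, Ighm 1426196_at and Cd24a 1437502_x_at, both lower, against 9.79% of all probe sets, 4.84% as lower and 4.95% as higher. Between RUNX1(41-214) and Runx1KO 11 did not overlap, 8 lower and 3 higher, against 18.1% of all probe sets, 8.45% as lower and 9.61% as higher. The 3 higher ones were Ighm 1426196_at, Igll1 1420176_x_at and Cd24a 1437502_x_at.

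The Runx1KO arrays stood apart from each other. Replicate 1 was the highest and replicate 3 the lowest of the 3 for 13 of the 24 members, 54.2%, and for 13.3% of all probe sets. This held for 6 of the 9 genes by their brightest probe set: Ighm, Jchain, Pou2af1, Vpreb1, Blnk and St6gal1. The signal of replicate 1 over that of replicate 3 was 6.99 for Pou2af1, 6.92 for Blnk, 3.79 for St6gal1, 3.29 for Vpreb1, 2.63 for Jchain and 2.02 for Ighm 1427351_s_at. It was 0.983 for Igll1, 0.923 for Cd24a and 0.394 for Cd22. By deposited signal, RUNX1(41-214) replicates lay in the same order for Jchain, Pou2af1, Blnk and St6gal1, but not for Ighm 1427351_s_at and Vpreb1. Control replicate 1 was the highest control for Pou2af1, Vpreb1, Blnk and St6gal1, though control replicate 3 was not the lowest for them. For Ighm 1427351_s_at and Jchain, control replicate 1 was the lowest control.

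Expressed as a range over 3 arrays on the log2 scale, the median over the brightest probe sets of the 9 genes was 0.55 in RUNX1(41-214), 1.25 in Runx1KO and 0.64 in control. Over all probe sets the medians were 0.34, 0.43 and 0.47. The range in Runx1KO was 2.55 for Blnk and 2.53 for Pou2af1, which 0.190% and 0.199% of all probe sets reached in that group. Among probe sets of like mean signal, 0.580% and 0.572% reached it. For St6gal1, Vpreb1 and Jchain the range was 1.76, 1.46 and 1.25, reached by 0.791%, 1.68% and 3.15% of all probe sets. Of those of like signal, 1.19%, 3.89% and 1.47% reached it. For Cd22 and Ighm 1427351_s_at the range in Runx1KO was 0.95 and 0.87, reached by 9.21% and 12.1% of all probe sets. For Igll1 and Cd24a it was 0.27 and 0.24, reached by 72.9% and 78.0%. In controls St6gal1 was wider still, at 1.99, and so was Igll1, at 1.30, while Vpreb1 was at 1.25 (1.245). The range was wider in Runx1KO than in control for 16 of 24 members, and for 44.8% of all probe sets. With 3 arrays in a group no test of this spread was made.

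**Figure D4:**
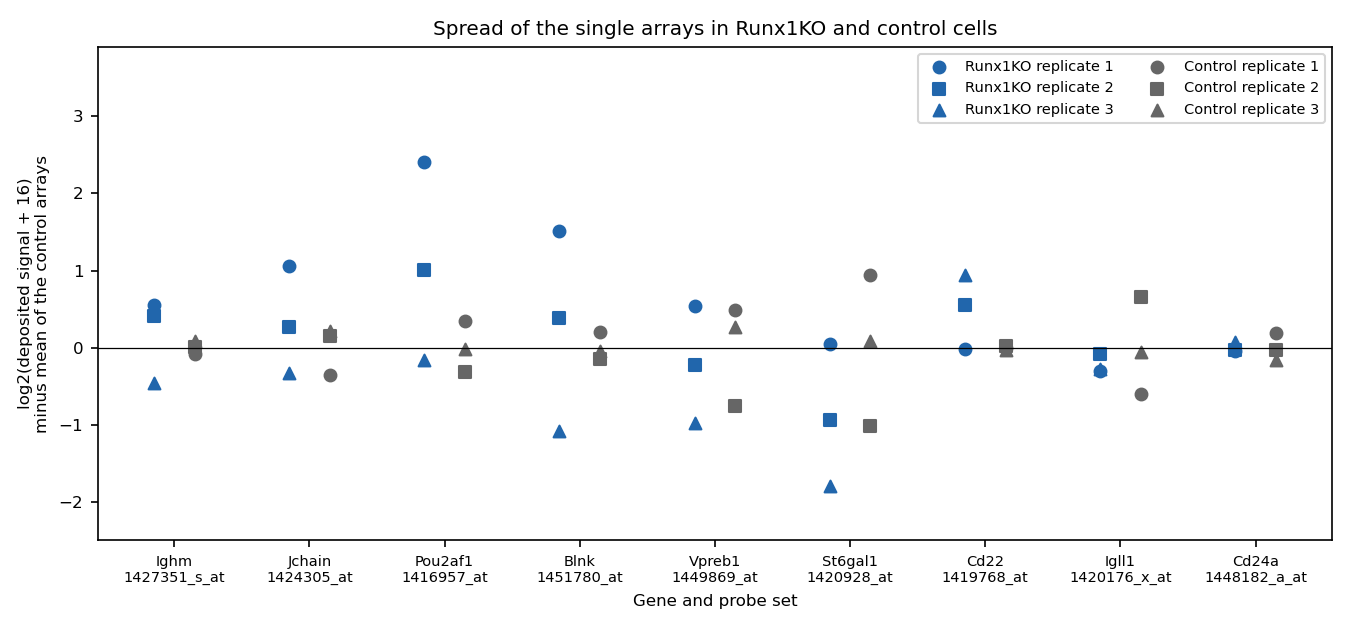
Log2 of deposited signal plus 16, minus the control mean, of the brightest probe set of the 9 genes in each Runx1KO and control array. Runx1KO replicate 1 is the highest and replicate 3 the lowest of the Runx1KO arrays for 6 genes, with deposited signals of 644 and 93.1 for Blnk. Cd24a, Igll1 and Cd22 show other orders.

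Runx1KO replicate 3 was also the array with the highest 3′ to 5′ Gapdh ratio, and its part in the spread was not tested. Without that array and control replicate 2, the array next in that ratio, 7 members passed for RUNX1(41-214) against control, 0 for Runx1KO against control and 8 for RUNX1(41-214) against Runx1KO, an alternative chosen after seeing the data. Over all 22626 probe sets, 916, 17 and 150 passed in that setting. In that setting Vpreb1 passed against both control (-1.92, adjusted p = 0.0101) and Runx1KO (-1.71, adjusted p = 0.0466), while Jchain no longer passed against Runx1KO (-3.41, adjusted p = 0.0594).

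Other genes of the pre-B and B cell receptor pathway were read by the brightest probe set of each. Of 22 listed, 16 had a probe set of their own, and in RUNX1(41-214) against control 2 passed as lower and 0 as higher. Dntt, the polymerase that adds bases at recombination joints, read 1547, 857 and 1339 in RUNX1(41-214), 4721, 4585 and 2550 in Runx1KO, and 5488, 3945 and 4464 in control. It was lower in RUNX1(41-214) on every array, by -1.93 ± 0.24 against control (adjusted p = 0.00129) and by -1.62 against Runx1KO (adjusted p = 0.00861). Cd72, an inhibitory receptor, fell against control (-1.10 ± 0.22, adjusted p = 0.0179). It was as low in Runx1KO, where every array was below every control (-1.04 ± 0.22, adjusted p = 0.119). RUNX1(41-214) stood only -0.07 ± 0.22 from Runx1KO for Cd72 (adjusted p = 0.957). Dapp1 and Cd81, with the highest mean log2 signal of the list over the 9 arrays, differed by 0.06 and 0.14. The list's median was -0.11, against 0.02 for all genes.

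Rag1, which cuts DNA in recombination, was looked at after its values were seen. It read 13.6, 6.3 and 10.8 in RUNX1(41-214), 1397, 627 and 135 in Runx1KO, and 1206, 115 and 88.2 in control. RUNX1(41-214) arrays were the lowest, and Runx1KO replicates 1 and 3 lay in the order seen for Blnk and Pou2af1. Control replicates lay in that order too, over a range of 3.62 on the log2 scale against 3.17 in Runx1KO. Neither the difference from control (-3.25 ± 0.91, adjusted p = 0.0935) nor that from Runx1KO (-4.27 ± 0.91, adjusted p = 0.0541) passed. Of 22 B lineage transcription factors, 20 were measured and 0 passed in limma in any of the 3 comparisons. Myb and Sox4, with the highest mean log2 signals, differed by -0.01 and 0.02 between RUNX1(41-214) and control.

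The sort took cells without IL7Ra on the surface, and Il7r, its gene, read 37.3, 24.6 and 43.8 in RUNX1(41-214), 1179, 855 and 380 in Runx1KO, and 1400, 280 and 706 in control. Its transcript was therefore measurable in both groups without the vector and lower in RUNX1(41-214), by -3.69 ± 0.52 against control (adjusted p = 0.00257) and -3.83 against Runx1KO (adjusted p = 0.00494). Of the other 4 measured markers of the sort and of its cells none passed. Kit was higher on every RUNX1(41-214) array than in control (0.57 ± 0.14, adjusted p = 0.0562), Flt3 lower on every one (-0.60 ± 0.21, adjusted p = 0.187), and Ptprc and Cd34 differed by 0.10 and 0.23. Every Runx1KO array was above every control for Kit too (0.49 ± 0.14, adjusted p = 0.34), and RUNX1(41-214) stood 0.08 ± 0.14 from Runx1KO. For Flt3, Runx1KO stood -0.41 ± 0.21 from control, with overlap. The summed signal of these 5 genes was 12716 to 14171 in RUNX1(41-214), 12904 to 15106 in Runx1KO and 10984 to 15022 in control. In bulk samples, fewer cells of a type and less RNA per cell cannot be told apart, which holds for every difference given here.

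Markers of mature B cells were mostly dim. Of 14 listed, 10 were measured and 4 were above the median signal, and their summed signal was 2201 to 3742 in RUNX1(41-214), 3063 to 5666 in Runx1KO and 2760 to 3808 in control. None was at 0, but Ms4a1, the defining B cell gene of the list, stayed between 21.2 and 36.7 on all arrays. Cd74, the invariant chain of antigen presentation, was the only one to pass, lower in RUNX1(41-214) than in Runx1KO (-1.70, adjusted p = 0.00517). H2-Aa and Cd37, the brightest of the list, differed between RUNX1(41-214) and control by -0.76 and 0.29. Of 11 plasma cell markers 8 were measured and 0 passed in limma in any comparison, with summed signals of 2521 to 3267 in RUNX1(41-214), 4082 to 4862 in Runx1KO and 2545 to 3499 in control. Sdc1, a plasma cell surface marker, read 596, 160 and 131 in RUNX1(41-214), 1161, 767 and 904 in Runx1KO, and 752, 398 and 601 in control. Its difference between RUNX1(41-214) and control was -1.15 (adjusted p = 0.267), and that of Xbp1, the brightest of the list, was 0.17. The part of mature B or plasma cells in the differences of Ighm and Jchain was not tested.

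Of 12 listed T cell markers 10 were measured, with summed signals of 1085 to 1274 in RUNX1(41-214), 1133 to 1389 in Runx1KO and 1246 to 1455 in control. Cd247 was the only one to pass, lower in RUNX1(41-214) than in control (-1.15, adjusted p = 0.0184), and Cd3e, the defining T cell gene, stayed between 3.2 and 24.6. Lat and Zap70, the brightest of the list, differed from control by -0.08 and 0.18. Of 8 erythroid markers 6 were measured, with sums of 781 to 2524 in RUNX1(41-214), 685 to 1842 in Runx1KO and 463 to 4931 in control. Alas2 and Slc4a1, of heme synthesis and the red cell membrane, were higher in RUNX1(41-214) than in control by 2.20 and 2.91 on the log2 scale (adjusted p = 0.0159 and 0.0172), and higher than in Runx1KO by 2.32 and 2.85 (adjusted p = 0.0251 and 0.0383). The others did not pass, and Car1 and Klf1, the brightest of the list, differed from control by -1.38 and -0.82, with a list median of -0.08. Of 12 granulocyte and monocyte markers 11 were measured, with sums of 13918 to 17665 in RUNX1(41-214), 11309 to 17726 in Runx1KO and 10687 to 18173 in control. The chemokine receptor Ccr2 was the only one to pass, lower in RUNX1(41-214) than in control (-2.69, adjusted p = 0.00183) and than in Runx1KO (-1.77, adjusted p = 0.0407). Mpo and Prtn3, the brightest of the list, differed from control by 0.17 and 0.39, Elane by 1.77 (adjusted p = 0.217), and the list median was 0.33. The part of these cells in the differences of the B lineage genes was not tested.

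By profile over the 9 arrays, the probe sets of other genes nearest to Ighm 1427351_s_at, among brighter named ones (mean above the median), belonged to Itsn1, Hnf4a, a further one of Itsn1, Jchain and Dntt. Likeness was the mean absolute difference of log2 profiles after centring, and it was 0.34, 0.40, 0.44, 0.44 and 0.46 for these, against a median of 1.33 for all candidates. Nearest to Jchain were 2 probe sets of Ighm at 0.44 and 0.48, then Igkv8-30 at 0.50, Sqor at 0.56 and Ehd3 at 0.60, against a median of 1.32. Nearest to Vpreb1 were 4 probe sets of Cnn3, at 0.24 to 0.31, and Dntt at 0.28, against 0.78. These are descriptions over the same arrays, with no test.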

How the data were processed

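Total RNA was isolated on Qiagen microcolumns, amplified and labelled with biotin by an Affymetrix protocol, per the labels. The deposited table holds linear intensities, from 0.53 to 20215, for 22690 probe sets on each of 9 arrays. How the authors summarised or scaled them is not given in the sources used here. Column medians differ, so the deposited intensities were not quantile normalized.

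After 64 control probe sets were set aside, log2(signal + 16) was quantile normalized and fitted with limma 3.58.1 in R 4.3.3, with a mean per group, eBayes with a trend, and 6 residual degrees of freedom. The test was two-sided, with Benjamini-Hochberg adjustment over 22626 probe sets. The fit was also run on simulated data with independent noise, which cannot show how it behaves where an array shifts many probe sets together. Symbols came from the platform annotation: 20380 probe sets had 1 symbol, 691 several and 1555 none, and 5 that list a member among several genes were not used as members.

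The members and lists were chosen with earlier results of these data known. Full values are given for each member probe set that passed and for the brightest of each gene, and other lists name, with at least a log2 difference, genes that passed and the pair with the highest mean log2 signal. Kit, Flt3, Sdc1, Elane, Ms4a1 and Cd3e, and Rag1, Ebf1 and Cd79a, were named outside this rule. Likeness names the nearest 5 probe sets of other genes to Ighm, Jchain and Vpreb1. Other normalizations, offsets of 1 and 50, a filter on dim probe sets, 1 probe set per gene, the mean of probe sets, array weights, fits on the groups compared, a replicate block and each array left out were tried. Precision is limited by 3 arrays per group. The labels do not say that replicate numbers pair the samples, and the main fit used no pairing. Correlations of deviations between arrays of equal number ran from -0.169 to 0.407.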

Additional observations from a re-analysis of the deposited data

How the results depend on the processing

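Of 29 single differences under 20 alternatives, 490 values kept direction and side of the threshold, 33 lost a call, 26 gained one and 15 changed sign, 0 of them of a difference that had passed. For RUNX1(41-214) against control, members passing numbered 3 to 7 with 1 array left out and 3 with probe sets averaged per gene. For RUNX1(41-214) against Runx1KO they numbered 2 to 7 with 1 array left out, 3 with an offset of 50, 3 with averaged probe sets, 8 with array weights (Ighm 1426196_at passing as higher, 0.87), 2 with only the groups compared, and 8 without Runx1KO replicate 3 and control replicate 2. For Runx1KO against control they numbered 0 to 1. Over all probe sets, 333 to 721, 13 to 47 and 95 to 261 passed with 1 array left out for RUNX1(41-214) against control, Runx1KO against control and RUNX1(41-214) against Runx1KO. For RUNX1(41-214) against control 406 passed without dim probe sets and 1055 with array weights. For Runx1KO against control 54 passed after a median shift in place of quantiles, 57 without dim probe sets, 7 with only the groups compared and 17 without the 2 arrays above. For RUNX1(41-214) against Runx1KO the counts were 131 without dim probe sets, 146 with averaged probe sets, 541 with array weights and 150 without the 2 arrays. The split of higher against lower was 277 to 413 for RUNX1(41-214) against control and 407 to 393 after a median shift. For Runx1KO against control it was 25 to 6, 35 to 19 after a median shift and 28 to 18 with an offset of 50.

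Sign changes were seen in small differences: Cd24a between Runx1KO and control (0.0168 after a median shift, -0.10 to 0.0465 with 1 array left out), between RUNX1(41-214) and control (-0.0107 without the 2 arrays, -0.0312 to 0.0929 with 1 left out) and between RUNX1(41-214) and Runx1KO (-0.0035 to 0.12). Between Runx1KO and control, Igll1 was 0.14 without the 2 arrays and -0.52 to 0.14 with 1 left out, Vpreb1 -0.58 to 0.16, Jchain -0.0459 to 0.58, Ighm 1427351_s_at -0.0227 to 0.41 and Blnk -0.33 to 0.95. With a replicate block, 7, 0 and 6 members and 685, 38 and 253 probe sets passed in the 3 comparisons in the order above, Pou2af1 (adjusted p = 0.0400) and Vpreb1 (adjusted p = 0.0408) against control and St6gal1 against Runx1KO (adjusted p = 0.0204) among them. The samples share a number and not a known source. Equal-number correlations of control with Runx1KO were 0.0702, 0.363 and 0.407, the last 2 the highest of any pair, but control replicate 1 correlated better with Runx1KO replicate 3 (0.125), and pairs of equal number with RUNX1(41-214) ran from -0.169 to 0.167. The cause of these changes was not tested. Filtering on dim probe sets or taking 1 per gene gives no value for the probe sets it removes. Dim members such as Cd22 read near the offset of 16, which limits what their differences can show.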

Other observations

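The kappa light chain gene Igkc is listed on 3 probe sets that also list other kappa segments, so none can be assigned to 1 gene. On 1427455_x_at the signals were 845, 822 and 53.8 in RUNX1(41-214), 7181, 4570 and 1504 in Runx1KO, and 2432, 3483 and 2455 in control. RUNX1(41-214) arrays were the lowest, with replicate 3 far below replicates 1 and 2, as it was for Jchain, and Runx1KO replicate 1 was the highest array and replicate 3 the lowest of its group. The differences of these 3 probe sets from control were -2.92, -2.62 and -2.87, and none passed (limma adjusted p = 0.0998, 0.120 and 0.105).

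Ebf1 and Cd79a were chosen after their values were seen. Ebf1, a factor that specifies B cells, read 2.7, 2.1 and 5.0 in RUNX1(41-214), 173, 72.9 and 9.7 in Runx1KO, and 158, 22.4 and 7.5 in control. Cd79a, which carries B cell receptor signals, read 22.7, 15.2 and 7.6 in RUNX1(41-214), 271, 106 and 16.1 in Runx1KO, and 57.9, 21.7 and 20.2 in control. Neither passed in any comparison, and in both Runx1KO replicate 1 was the highest array of all 9. In both genes the control replicates lay in the same order as those of Runx1KO. The range on the log2 scale was 2.84 in control against 2.77 in Runx1KO for Ebf1, and 1.04 against 3.06 for Cd79a. Of the 5 probe sets that list a member among several genes, none passed, and 1422416_s_at, which lists Vpreb1 and Vpreb2, read 38.2, 41.2 and 59.1 in RUNX1(41-214), 38.8, 29.8 and 33.7 in Runx1KO, and 29.0, 46.2 and 44.5 in control.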
